A study of Mus musculus with 6 samples.

Results

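The 10 genes described here are those that natural killer (NK) cells and cytotoxic T cells use to kill and to signal. Gzma, Gzmb, Prf1, Nkg7 and Ctsw encode proteins of the killing granule, Klrd1, Klrk1 and Ncr1 encode surface receptors, Ifng encodes interferon gamma and Eomes encodes a transcription factor. They were chosen by symbol, with earlier results of these data known, from a table of 34652 genes, and all 10 were in it. The table held 6 bulk RNA libraries of macrophages sorted from the cerebrospinal fluid of mice with leptomeningeal metastasis, a tumor that grows in the fluid and membranes around the brain. All mice were Cx3cr1CreER:mTmG animals that had received tamoxifen and were sampled on day 12 after inoculation of LLC-LeptoM cells, a line derived from Lewis lung carcinoma, so both groups carried the same alleles, the drug and the tumor. The dLAM group, labelled resident macrophages, had 3 libraries of cells sorted as CD45+CD11b+F4/80+Ly6C-GFP+. The Mono-MΦ group, labelled monocyte-macrophages, had 3 libraries that combined cells from 2 GFP- gates, CD45+CD11b+F4/80+ cells on the one hand and CD45+CD11b+F4/80lowLy6C+ cells on the other. In this model GFP marks cells in which the Cre enzyme, made from the Cx3cr1 gene, was active when tamoxifen was given, and any cell type that used Cx3cr1 at that time can carry it. No marker restricted to T cells or NK cells was used in the gates. Strain background, sex and age were not given in the sources used here.

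Cytotoxic lymphocytes store granzymes, which are proteases, together with perforin, which opens the membrane of the target cell so that granzymes can enter. NK cells decide whether to release these granules by adding up signals from activating and inhibitory receptors, many of which are C-type lectins encoded next to each other in the natural killer gene complex. Activated NK cells and T cells also secrete interferon gamma, to which macrophages respond with more antigen presentation.

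The libraries held an estimated 12297100 to 17015600 fragments, and between 10281 and 11470 genes had at least 1 FPKM, a unit that divides fragments by the length of the gene and the size of the library. The markers of both populations followed the labels: C1qa, a complement gene of tissue macrophages, lay between 410.0 and 570.5 FPKM in the dLAM libraries and between 5.20 and 9.21 in the monocyte-macrophage libraries. Ly6c2, a gene of the Ly6C family used in the sort, lay between 11.5 and 15.0 FPKM in the dLAM libraries and between 69.2 and 124 in the monocyte-macrophage libraries. RNA of Y-linked genes was high in dLAM library 3 and monocyte-macrophage library 2, with sums of 23.5 and 26.1 FPKM, and lay between 3.31 and 5.49 in the other 4 libraries. Whether each library came from its own mouse is not stated in the labels, and the p-values below therefore cover the spread from library to library alone, part of which may be technical.

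All 10 genes were higher in the dLAM libraries. In each of them the lowest dLAM library lay above the highest monocyte-macrophage library, a separation that 25.3% of the 22145 genes with any value above 0 showed in this direction. When all those genes were fitted with limma on log2(FPKM + 1), all 10 passed as higher in the dLAM libraries at adjusted p-values between 0.00335 and 0.0364, against 13.0% of genes called higher. None was called lower, against 4.99% of genes. Because the 10 genes were chosen with earlier results of these data known, setting them against these shares is a description and not a test. The median difference of the 10 genes was 1.71 on the log2 scale and that of all 22145 genes was 0.04, with the 95th and 99th percentiles of all genes at 0.95 and 2.09. With the filter used for single genes below, at least 1 FPKM in at least 3 libraries, 11317 genes were tested, of which 19.9% were higher and 10.6% were lower in the dLAM libraries. Of the 10 genes, 9 passed this filter and all 9 were called higher, but 7 of those 9 would have failed on the monocyte-macrophage libraries alone, so this count is partly set by the filter. The median log2 difference of all 11317 tested genes was 0.06, against which the medians of the lists below can be read. The same limit holds for those lists, whose low genes often passed the filter through the dLAM libraries. Where a printed median differs with no filter, that over all genes of the list is given as well. Counts of calls are those with the filter unless stated, and some of them change with no filter. In bulk libraries, more cells of a type and more RNA per cell cannot be told apart. Which cell type made the RNA of a gene, higher or lower, was not tested. Clauses below on the cells that use a gene are background.

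**Figure D1:**
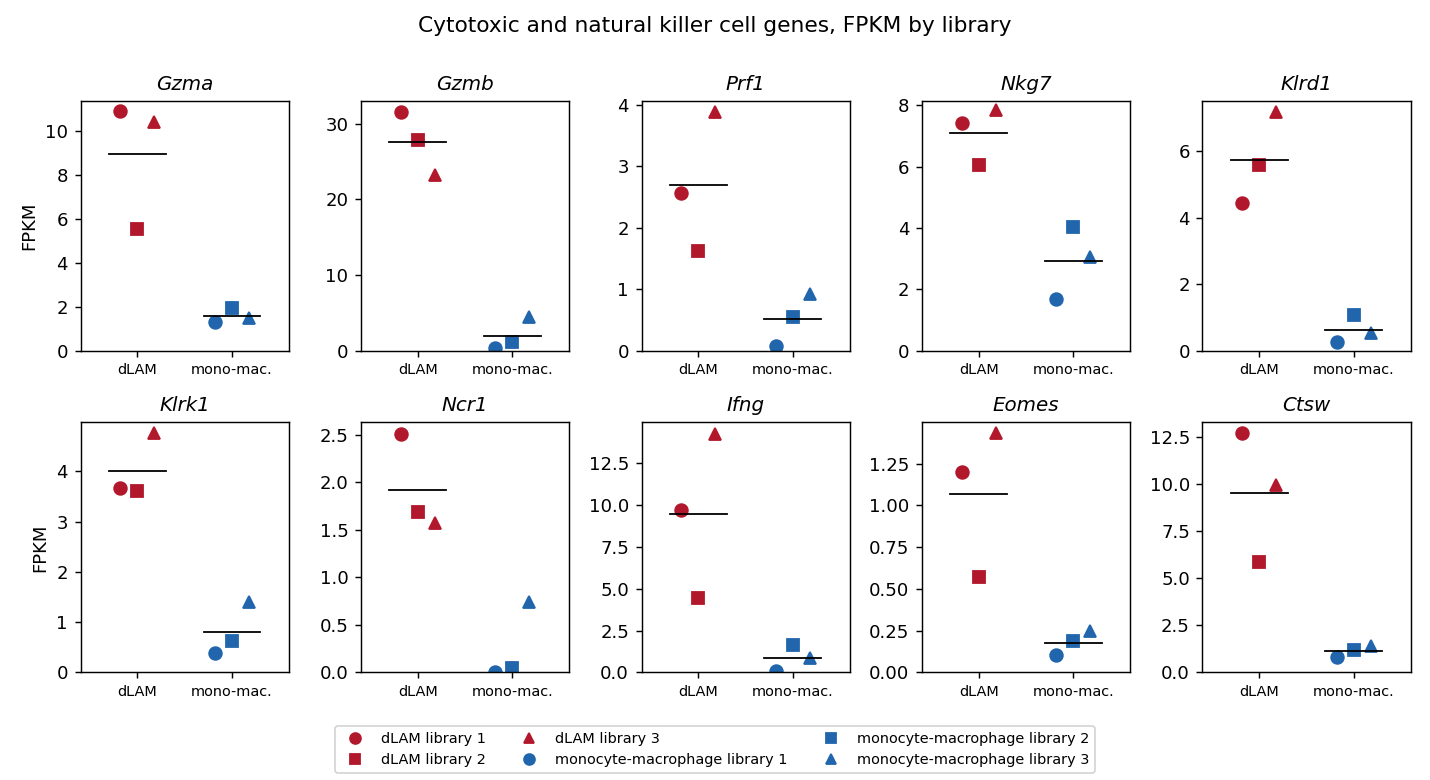
FPKM of each of the 10 genes, 1 panel per gene on its own linear axis from 0, with 1 point per library (dLAM red, monocyte-macrophage blue) and a line at the mean of a group that has no library listed at 0. In all 10 panels the 3 dLAM points lie above the 3 monocyte-macrophage points, and Gzmb reaches the highest level at 31.5 FPKM.

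Granzyme B, a protease that starts apoptosis by cutting caspases and their substrates, was the most abundant of the 10 in every dLAM library. Gzmb (chromosome 14, 56258838 to 56262260, minus strand, 5 exons in mm10) stood at 31.5, 27.9 and 23.2 FPKM in dLAM libraries 1, 2 and 3, and at 0.309, 1.15 and 4.52 FPKM in monocyte-macrophage libraries 1, 2 and 3. The dLAM values lay close together while the monocyte-macrophage values spanned 14.6-fold, and the lowest dLAM library stood 5.14-fold above the highest of the others. The group means were 27.5 ± 4.15 and 1.99 ± 2.23 FPKM (SD, n = 3 each), a ratio of 13.8 that became 37.7 without monocyte-macrophage library 3. After the log2(FPKM + 1) transform, in which changes of low genes appear smaller than they are, the difference was 3.51 (SE 0.46, limma adjusted p = 0.00121), which ranked 33 among the 11317 genes tested. An estimated 669, 493 and 414 fragments stood behind the dLAM values, and 6, 23 and 110 behind the others.

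Granzyme A, a protease with trypsin-like specificity, separated the groups by less. Gzma (chromosome 13, 113093825 to 113100981, minus strand, 6 exons) had 10.9, 5.55 and 10.5 FPKM in the dLAM libraries and 1.33, 1.94 and 1.47 in the monocyte-macrophage libraries. dLAM library 2 was the low member of its group and still stood 2.86-fold above the highest monocyte-macrophage value. The means were 8.98 ± 2.98 and 1.58 ± 0.321 FPKM (SD, n = 3 each), a 5.67-fold ratio, with a log2 difference of 1.91 (SE 0.24, limma adjusted p = 0.000976).

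Perforin, the pore protein without which granzymes do not reach the cytosol of the target, was present at lower levels. Prf1 (chromosome 10, 61297833 to 61304680, plus strand, 3 exons) had 2.57, 1.62 and 3.88 FPKM in the dLAM libraries, and 0.0711, 0.554 and 0.915 in the monocyte-macrophage libraries, where the first of these values rested on about 3 fragments. The groups did not overlap, although dLAM library 2 was 1.77-fold above monocyte-macrophage library 3. The ratio of means was 5.24, or 8.61 without monocyte-macrophage library 3, and the log2 difference was 1.28 (SE 0.28, limma adjusted p = 0.0125). The 4 libraries of low Y-linked RNA were dLAM libraries 1 and 2 and monocyte-macrophage libraries 1 and 3. Between these alone, the log2 difference for Prf1 was 1.09 and the limma adjusted p was 0.0766.

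Nkg7, a membrane protein of the granule that helps its release, showed the smallest difference of the 9 genes tested. Nkg7 (chromosome 7, 43437073 to 43438249, plus strand, 4 exons) had 7.44, 6.04 and 7.85 FPKM in the dLAM libraries and 1.69, 4.05 and 3.05 in the monocyte-macrophage libraries. It was the most abundant of the 10 genes in monocyte-macrophage libraries 1 and 2, and its lowest dLAM value was 1.49-fold above its highest monocyte-macrophage value. The means of 7.11 ± 0.946 and 2.93 ± 1.18 FPKM (SD, n = 3 each) differed 2.43-fold, with a log2 difference of 1.09 (SE 0.23, limma adjusted p = 0.0105).

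Cathepsin W, a protease found mostly in NK cells and CD8 T cells, had a wide gap. Ctsw (chromosome 19, 5465043 to 5468507, minus strand, 7 exons) had 12.7, 5.87 and 9.93 FPKM in the dLAM libraries and 0.830, 1.21 and 1.38 in the monocyte-macrophage libraries. As with Gzma, library 2 was the lowest of the dLAM libraries, here 4.25-fold above the highest library of the other group. The ratio of means was 8.31 and the log2 difference was 2.24 (SE 0.25, limma adjusted p = 0.000592). Its exons share 9 bases with those of Fibp on the opposite strand, which was also higher in the dLAM libraries but with a log2 difference of 0.51.

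**Figure D2:**
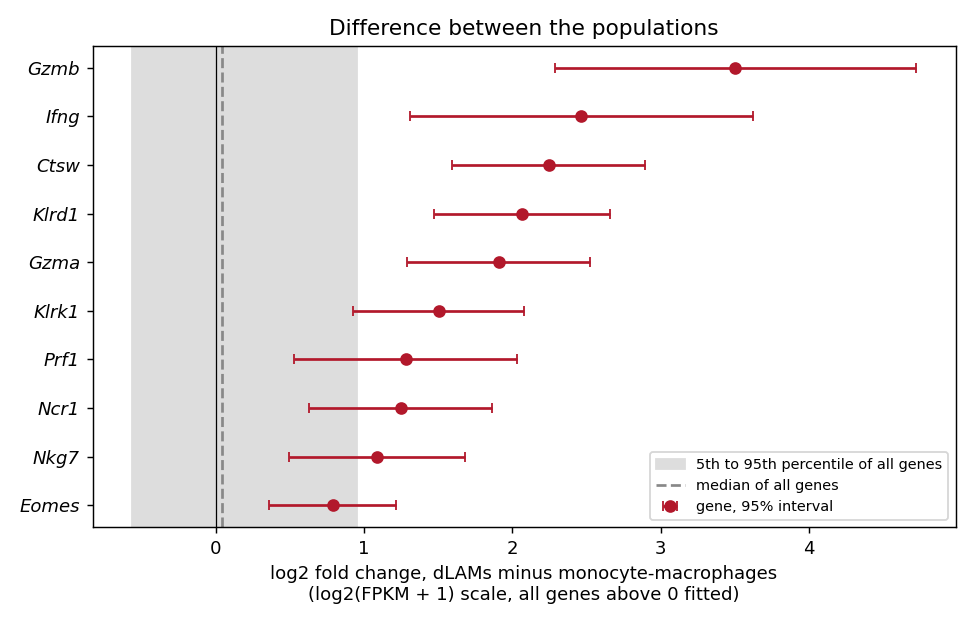
Log2 difference of each of the 10 genes (dLAM minus monocyte-macrophage, log2(FPKM + 1) scale, fit with no filter) with its 95% confidence interval, over a gray band from the 5th to the 95th percentile of all 22145 genes. All intervals lie to the right of 0, from Gzmb at 3.51 to Eomes at 0.79, and the points of 9 genes lie beyond the band, which ends at 0.95.

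The genes around these granule proteins did not move as a block. Of the 8 other granzyme genes, 1 passed the filter: Gzmc, at 2.24, 0.957 and 2.41 FPKM against 0, 0.152 and 1.64, was not called (limma adjusted p = 0.107), and was called higher without monocyte-macrophage library 3 (adjusted p = 0.0128). Gzmc to Gzmg and Gzmn lie close together and resemble each other in sequence, so their levels are uncertain. Of 12 genes that mature or release granules, 2 were higher, 4 were lower and 6 were not called, with a median log2 difference of -0.09. The lower genes were Lyst (-1.22), Rab27a (-1.09), Stx11 (-0.76) and Stxbp2 (-0.44), all needed for granule traffic or fusion and also used by myeloid cells. The higher genes were Cst7 (1.28), an inhibitor of the cathepsin that activates granzymes, and Slc29a3 (1.003), a lysosomal nucleoside transporter. Leaving out dLAM library 3, monocyte-macrophage library 1 or monocyte-macrophage library 3 ended the call for Cst7 (adjusted p up to 0.0644), and leaving out dLAM library 1 or 2 or monocyte-macrophage library 2 ended that for Stxbp2 (up to 0.0861). Ctsc, that cathepsin, was not called (0.50, adjusted p = 0.0598), and neither was Srgn, the proteoglycan that packs the granule (-0.29, adjusted p = 0.405). Without monocyte-macrophage library 3, Ctsc was called higher, at an adjusted p of 0.0242.

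Of the 4 serpins that block granzymes inside the cell, 3 passed the filter and were called higher, with a median log2 difference of 2.25. With no filter, the median of the 4 was 1.48 and 2 were called. Serpinb9, which inhibits granzyme B, had 5.18, 6.17 and 5.71 FPKM in the dLAM libraries and 0.345, 0.278 and 0.603 in the monocyte-macrophage libraries, a log2 difference of 2.25 (SE 0.14, limma adjusted p = 5.1e-05). Serpinb6b differed by 2.83. Serpinb6a differed by 0.70, a call that ended when any single dLAM library was left out (adjusted p up to 0.101). Of the ligands and receptors of the death receptor route, by which killing works without granules, Fasl (1.503) and Tnfsf10 (1.22) were higher among 3 of 4 genes tested, with a median of 1.22, or 0.84 over all 4 with no filter. Fas was not called at -0.52, and was called lower without monocyte-macrophage library 3 (adjusted p = 0.0426).

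CD94, the product of Klrd1, pairs with NKG2 proteins to read the MHC class I-like molecule Qa-1. Klrd1 (chromosome 6, 129591782 to 129598775, plus strand, 7 exons) had 4.45, 5.58 and 7.18 FPKM in the dLAM libraries and 0.263, 1.07 and 0.528 in the monocyte-macrophage libraries. Its lowest dLAM library was 4.14-fold above the highest monocyte-macrophage library, and the latter values rested on about 5, 19 and 12 fragments. The ratio of means was 9.23, or 14.5 without monocyte-macrophage library 2, and the log2 difference of 2.07 (SE 0.23) had the lowest adjusted p of the 9 genes tested (limma, 0.000519).

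NKG2D, the product of Klrk1, is an activating receptor for stress-induced ligands. Klrk1 (chromosome 6, 129610323 to 129623864, minus strand, 6 exons) begins its annotated span 11547 bases after that of Klrd1 ends. Its values were 3.66, 3.61 and 4.76 FPKM in the dLAM libraries and 0.392, 0.624 and 1.40 in the monocyte-macrophage libraries. The dLAM libraries were close to each other and all above the other group. The means differed 4.97-fold, or 7.89-fold without monocyte-macrophage library 3, with a log2 difference of 1.503 (SE 0.22, limma adjusted p = 0.00187).

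NKp46, the product of Ncr1, is an activating receptor found on NK cells and a few related innate lymphocytes, and so the most NK-restricted receptor of the 10. Ncr1 (chromosome 7, 4337724 to 4345164, plus strand, 6 exons) had 2.51, 1.69 and 1.57 FPKM in the dLAM libraries. It was listed at 0 in monocyte-macrophage library 1, at 0.0447 in library 2, about 1 fragment, and at 0.739 in library 3, about 19 fragments. All dLAM libraries stood above all others, with about 57, 32 and 30 fragments. The log2 difference was 1.25 (SE 0.24, limma adjusted p = 0.00708), and the adjusted p was 0.0506 between the 4 libraries of low Y-linked RNA alone.

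Around Klrd1 and Klrk1, the other receptors of the natural killer gene complex were mixed. Of 25 listed, 24 were in the table and 8 passed the filter, of which 5 were higher, 2 were lower and 1 was not called, with a median log2 difference of 1.15. With no filter, the median of the 24 was 0.32, and 10 were higher and 2 lower. Klri1 (3.29) and Klri2 (1.55), lectin-like receptors that pair with Klre1, were among the higher genes, as was Klrb1b (3.04), an inhibitory receptor. Klri1 had 8.71, 8.82 and 11.3 FPKM in the dLAM libraries and 0.174, 0 and 0.0701 in the monocyte-macrophage libraries, so it was more abundant in the dLAM libraries than Klrd1 itself. Klrc1, which encodes the NKG2A partner of CD94, was higher at 1.45 with 4.44, 2.34 and 4.28 FPKM against 0.111, 1.48 and 0.713. Clec2d, the ligand of Klrb1b, was higher at 0.85, a call that ended without dLAM library 1 or 2 (adjusted p up to 0.0919). The lower genes were Klrb1f (-1.52) and Klra2 (-0.68), a member of the Ly49 family known from myeloid cells, whose call ended between the 4 libraries of low Y-linked RNA (adjusted p = 0.0589). Klra17, another Ly49 gene known from dendritic cells, was not called (0.62) and was called higher without monocyte-macrophage library 3 (adjusted p = 0.00555).

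**Figure D3:**
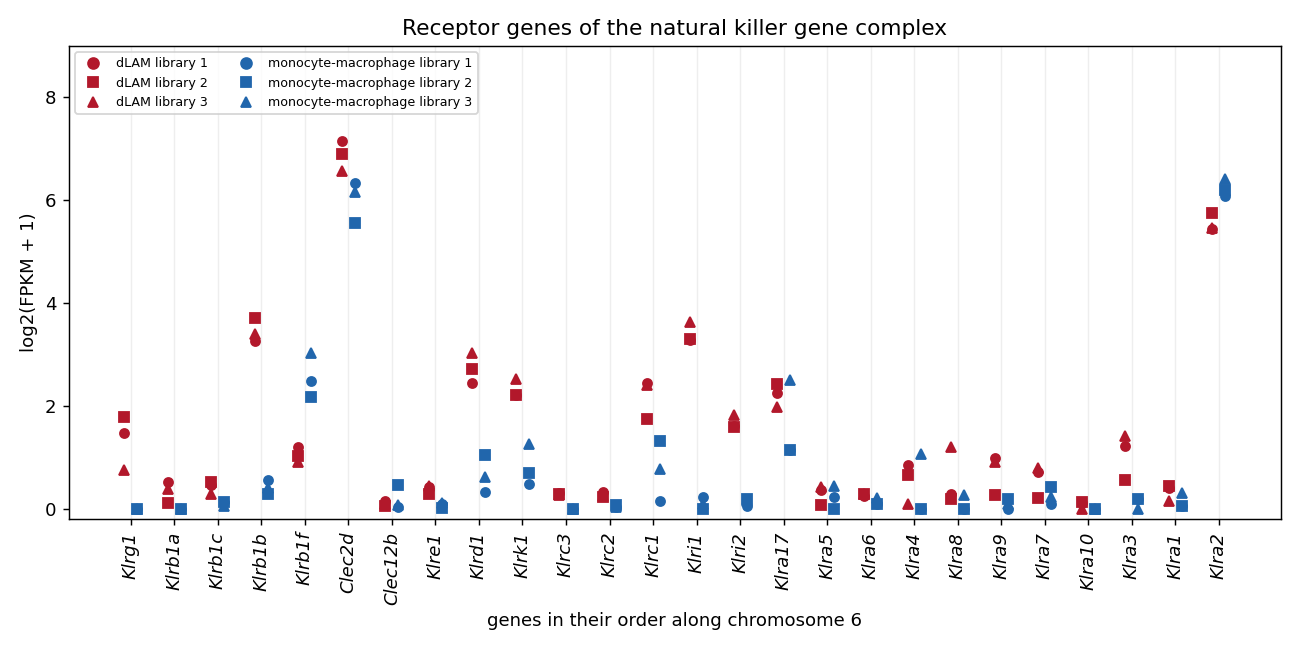
Level, as log2(FPKM + 1), of 26 receptor genes in their order along chromosome 6, with 1 point per library (dLAM red, monocyte-macrophage blue). All dLAM points lie above all monocyte-macrophage points for 16 of the 26 genes, below them for 2, and overlap them for 8, most of which are Ly49 (Klra) genes at low levels.

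The Klra genes of this cluster are close copies of each other, so their single values are uncertain. Klrb1c, which encodes the NK cell antigen NK1.1 in some strains, was at 0.388, 0.434 and 0.215 FPKM in the dLAM libraries, below Klrd1 and Klrk1 in each of them. Klra8, a Ly49 receptor gene, was at 0.229, 0.138 and 1.30 FPKM in the dLAM libraries and at 0, 0 and 0.199 in the others.

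Other NK surface receptors outside the complex mostly rose with the 10 genes: of 19 listed, 15 were tested, 11 were higher and 2 were lower, with a median log2 difference of 1.63. With no filter, the median over 18 genes was 1.37. Tigit (3.03), an inhibitory receptor, Il2rb (2.97), a chain of the receptors for IL-2 and IL-15, Slamf7 (2.82) and Cd226 (1.93) had the largest differences. The lower genes were Itga1 (-1.56), an integrin, and Cd244 (-0.67), a receptor of the SLAM family also present on monocytes.

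Of 14 adaptors and kinases that carry the receptor signal, 12 were tested, 6 were higher and 2 were lower, with a median log2 difference of 0.28. The higher genes included Zap70 (2.31), Cd247 (2.11), Lat (2.02) and Plcg1 (1.605), which act in T cell and NK cell receptor signalling. The lower genes, Syk (-0.45) and Plcg2 (-0.52), serve myeloid and B cell receptors as well. The call for Syk ended under TPM scaling (adjusted p = 0.0583) and between the 4 libraries of low Y-linked RNA (adjusted p = 0.0850). The adaptors that NKG2D itself uses did not pass in either direction: Hcst was at 4.795, 8.55 and 7.37 FPKM against 9.03, 9.77 and 6.18 (adjusted p = 0.458), and Tyrobp at 461, 463 and 402 against 618, 542 and 556 (adjusted p = 0.0780). For Tyrobp all dLAM libraries lay below all the others, and it was called lower in the fit without a mean-variance trend. Sh2d1b1 was called higher at 0.45, a call that, of the 6 fits leaving out 1 library each, held only in that without monocyte-macrophage library 2 (adjusted p up to 0.126).

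The ligands of these receptors showed small differences. Of 11 listed, 7 were in the table and 5 were tested, with a median log2 difference of -0.07. H2-D1 (0.82), an MHC class I gene, and H2-T23 (0.51), which encodes Qa-1, were higher, the latter at an adjusted p of 0.04997, a call that ended without any single library other than monocyte-macrophage library 3 (adjusted p up to 0.166). The NKG2D ligands Raet1d (-0.07), Raet1e (-0.50) and Ulbp1 (-0.43) were not called, although Ulbp1 was called lower without monocyte-macrophage library 1 (adjusted p = 0.0133).

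Of the genes with no library listed at 0, interferon gamma varied most between libraries of 1 group. Ifng (chromosome 10, 118441046 to 118445892, plus strand, 3 exons) had 9.69, 4.44 and 14.2 FPKM in the dLAM libraries and 0.0605, 1.65 and 0.876 in the monocyte-macrophage libraries. Values spanned 3.20-fold within the first group and 27.3-fold within the second, whose lowest library held about 1 fragment. The lowest dLAM value was nevertheless 2.69-fold above the highest of the others. The means of 9.45 ± 4.89 and 0.862 ± 0.795 FPKM (SD, n = 3 each) differed 10.96-fold, or 20.2-fold without monocyte-macrophage library 2, with a log2 difference of 2.46 (SE 0.44, limma adjusted p = 0.00472). An annotated transcript model of unknown function on the same strand shares 336 exon bases with Ifng.

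On the receiving side, of 7 genes of the interferon gamma receptor and its signalling, 2 were higher and 5 were not called, with a median log2 difference of 0.40. Socs1, a feedback inhibitor that interferon gamma induces, had 16.5, 18.5 and 17.6 FPKM against 8.38, 10.3 and 8.72, a difference of 0.88 (SE 0.11, limma adjusted p = 0.000914). Jak2 was higher at 0.55, a call that ended without any single library other than monocyte-macrophage library 2 (adjusted p up to 0.127). The receptor chains Ifngr1 (0.20) and Ifngr2 (-0.09) were not called, nor was the transcription factor Irf1 (0.47), except that it was called higher without monocyte-macrophage library 2 (adjusted p = 0.0174).

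Of 8 other secreted products of cytotoxic cells, all 8 were tested and 5 were higher, with a median of 1.09. Ccl5, a chemokine, was at 82.2, 104 and 99.3 FPKM in the dLAM libraries and 5.84, 12.2 and 7.10 in the monocyte-macrophage libraries, a log2 difference of 3.41 (SE 0.24, limma adjusted p = 8.4e-05). Which cells made this RNA was not tested. Ltb (1.94), Csf2 (1.79) and Lta (1.16) followed. Ccl4 (1.03) was called, but no longer so without any single library other than monocyte-macrophage library 2 (adjusted p up to 0.119). Xcl1, a chemokine of NK cells and CD8 T cells, had 4.39, 2.33 and 3.39 FPKM against 0.279, 1.36 and 2.58 and was not called (0.95, adjusted p = 0.0886), yet was called higher without monocyte-macrophage library 3 (adjusted p = 0.0273).

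Of 9 cytokines that act on cytotoxic cells, 6 were tested, 2 were higher and 1 was lower, with a median of -0.06. With no filter, the median over all 9 was 0.05, and 3 were higher and 0 lower. Il12b, the p40 subunit of IL-12, which drives interferon gamma production, had 2.33, 7.66 and 3.27 FPKM in the dLAM libraries against 0.0260, 0 and 0.0209 (2.29, SE 0.32, limma adjusted p = 0.00163). Among the dLAM libraries, Il12b was highest and Ifng lowest in library 2, and a link between these genes was not tested. The call for Ebi3 (0.38) ended without any single library other than dLAM library 3 (adjusted p up to 0.0990) and that for Il18 (-0.50) without any other than dLAM library 1 (up to 0.115). Il15 was not called (-0.21).

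Eomes, a T-box factor needed for NK cell maturation and used by memory CD8 T cells, was the least abundant of the 10 genes in the dLAM libraries. Eomes (chromosome 9, 118478212 to 118486132, plus strand, 6 exons) had 1.20, 0.569 and 1.43 FPKM in the dLAM libraries and 0.102, 0.189 and 0.247 in the monocyte-macrophage libraries, about 74, 29 and 74 fragments against 6, 11 and 17. Only dLAM libraries 1 and 3 reached 1 FPKM, so the gene failed the filter. Its dLAM values still lay above all the others, the means differed 5.95-fold, and in the fit with no filter the log2 difference was 0.79 (SE 0.18, limma adjusted p = 0.0276). An antisense gene shares 118 exon bases with it, and without knowledge of the strand setting its reads cannot be told apart from those of Eomes.

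Of 12 other transcription factors of cytotoxic lymphocytes, 11 were tested, 7 were higher and 1 was lower, with a median log2 difference of 1.32, or 1.07 over all 12 with no filter. Tbx21, the T-box relative of Eomes that drives interferon gamma in T cells and NK cells, had 5.27, 4.08 and 6.08 FPKM against 0.264, 0.572 and 0.212, so it was more abundant than Eomes in each library except monocyte-macrophage library 3. Ikzf3 (2.16), Ets1 (1.49) and Gata3 (1.48), a factor of type 2 helper T cells and innate lymphoid cells, were also higher. Nfil3 (-0.63), which NK cells need early in their development and which myeloid cells express too, was lower, a call lost without dLAM library 2 (adjusted p = 0.0619). Runx3, a factor of cytotoxic lymphocytes that macrophages also express, had 16.9, 16.6 and 16.3 FPKM against 10.1, 13.0 and 5.47 and was called higher at 0.81 (adjusted p = 0.0489). That call ended without any single dLAM library or without monocyte-macrophage library 1 (adjusted p up to 0.126).

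The start regions of the genes were searched for the letters that factors of this lineage bind, since the members moved together. Windows of 250 bases before to 50 bases after the start were taken from RefSeq (GRCm38.p6), which held entries for 8 of the 10 genes; Klrd1 and Ctsw had none. The RUNX motif TGTGGTT, searched on both strands, was found in 4 of the 8 genes, Gzma, Gzmb, Klrk1 and Ncr1, and in 4.68% of all 22666 windows. The T-box motif GGTGTGA was found in Nkg7 alone, 13 bases before its RefSeq start, and in 3.84% of all windows. That start lies downstream of the GENCODE start given above for Nkg7, so this match begins after the latter. The AP-1 motif TGANTCA was found in Gzmb and Klrk1 and in 7.12% of windows, and the STAT motif TTCNNNGAA in Gzmb, Ifng and Nkg7 and in 7.90%. A match is a stretch of letters and was not tested for binding. The 4 regions with a RUNX match are printed to show where it falls, as the 200 bases before the start, 5′ to 3′ on the strand of the gene, with the match in capitals.
Gzmb, chr14:56262335-56262534, minus strand: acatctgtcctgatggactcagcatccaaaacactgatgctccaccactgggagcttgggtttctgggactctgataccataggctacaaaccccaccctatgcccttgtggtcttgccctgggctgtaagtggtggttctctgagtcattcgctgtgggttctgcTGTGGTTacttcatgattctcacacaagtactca
Gzma, chr13:113100982-113101181, minus strand: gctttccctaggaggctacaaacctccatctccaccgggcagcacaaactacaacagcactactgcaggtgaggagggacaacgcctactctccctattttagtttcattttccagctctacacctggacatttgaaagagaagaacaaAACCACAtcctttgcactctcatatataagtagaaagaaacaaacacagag
Klrk1, chr6:129623865-129624064, minus strand: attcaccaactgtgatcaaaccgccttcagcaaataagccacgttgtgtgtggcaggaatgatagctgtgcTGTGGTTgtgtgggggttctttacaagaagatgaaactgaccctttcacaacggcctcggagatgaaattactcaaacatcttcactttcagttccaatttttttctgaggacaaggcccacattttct
Ncr1, chr7:4337524-4337723, plus strand: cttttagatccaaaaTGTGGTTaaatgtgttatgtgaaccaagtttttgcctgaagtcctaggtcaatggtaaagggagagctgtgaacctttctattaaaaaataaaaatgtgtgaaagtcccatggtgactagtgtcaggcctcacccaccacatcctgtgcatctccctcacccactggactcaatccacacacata
The match began 34 bases before the start in Gzmb, 51 in Gzma, where it reads AACCACA because it lies on the other strand, 129 in Klrk1 and 185 in Ncr1. These distances are from the RefSeq start, which for Gzmb lies 74 bases upstream of the GENCODE start given above, so that its match begins 108 bases before the latter. The matches lay at different distances, and the differences of these 4 genes between the groups ran from 1.25 for Ncr1 to 3.51 for Gzmb.

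Among themselves, the 10 genes kept a similar but not identical order of levels. In FPKM, which scales by length, Gzmb led in the 3 dLAM libraries, Ctsw, Gzma, Ifng and Nkg7 followed in varying order between 4.44 and 14.2, and Klrd1, Klrk1, Prf1, Ncr1 and Eomes lay mostly below them. Gzmb at 27.5 ± 4.15 stood apart from every other gene, whereas Ctsw, Ifng, Gzma and Nkg7 did not differ beyond their SD. Klrd1 at 5.74 ± 1.37 and Klrk1 at 4.01 ± 0.649 also lay within reach of each other's spread.

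Libraries of 1 group differed in the same way for many of the genes. dLAM library 2 was the lowest of its group for 7 of the 10 genes and the highest for 0, while dLAM library 3 was the highest for 6 and dLAM library 1 for 4. Monocyte-macrophage library 1 was the lowest of its group for all 10 genes, and library 3 was the highest for 6 and library 2 for 4. Monocyte-macrophage library 1 also had the fewest genes at 1 FPKM or more, 10281. The summed level of the 10 genes was 86.6, 62.9 and 84.5 FPKM in the dLAM libraries and 5.05, 12.5 and 15.1 in the monocyte-macrophage libraries. Across the 45 pairs of genes, Pearson's r of log2(FPKM + 1) over the 6 libraries lay between 0.842 and 0.992, a description that the group difference itself sets. With the group means taken off, r ran from -0.32 to 0.910 with a median of 0.527, and 44 of 45 pairs were above 0. These 6 points share library depth and the makeup of each sort. How often a library was lowest or highest over all genes, and r over all pairs of genes, were not computed. The counts in this paragraph therefore describe the 10 genes and set them apart from no other genes.

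The genes most like the mean of the 9 tested members over the 6 libraries were Tox (r = 0.998), Pip4k2c (0.998), Wrb (0.997), S1pr1 (0.996), Spsb1 (0.996), Pdcd1 (0.995), Rnf141 (0.995) and Atxn1 (0.995), out of 11308 genes of which 537 had an r over 0.95. Pdcd1, which encodes the checkpoint receptor PD-1, had 17.5, 10.4 and 16.4 FPKM in the dLAM libraries against 0.303, 0.774 and 1.40. With group means taken off, the closest were Selt (0.995), Arsg (0.995), Slf1 (0.994), Traj13 (0.993), Mirt1 (0.993), 2310001H17Rik (0.993), Rnft1 (0.992) and Pam (0.992), and 98 of 11308 genes had an r over 0.95. The 2 lists of 8 shared no gene. Over the 6 libraries, the group difference itself sets much of r. With group means taken off, few free values remain, so high values of r are bound to turn up among 11308 genes. Likeness of that kind also leaves out the group difference. Selt, for example, had 53.1, 48.0 and 55.0 FPKM in the dLAM libraries against 60.5, 68.5 and 71.6.

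RNA of other lymphocytes moved with the 10 genes. All 15 of 15 T cell markers were higher in the dLAM libraries, with a median log2 difference of 2.36 and a summed level between 216 and 271 FPKM against 6.68, 38.4 and 31.9 in monocyte-macrophage libraries 1, 2 and 3. Cd3g (3.33), Cd3e (3.21), Cd2 (3.14) and Trac (3.12) had the largest differences, and Cd3e itself was at 40.6, 35.3 and 42.5 FPKM against 1.17, 5.20 and 5.15. Like the 10 genes, the T cell markers were lowest in monocyte-macrophage library 1. Cd4, at 18.2 to 21.2 FPKM against 0.191 to 2.12, differed by 3.44, and the CD8 markers Cd8a (1.17) and Cd8b1 (2.01) were both higher, with sums between 7.22 and 15.8 FPKM against 1.43 to 2.81. Between the 4 libraries of low Y-linked RNA, the calls for Cd8a (adjusted p = 0.0838) and for Trbc1, a T cell receptor gene (adjusted p = 0.0806), ended, and that for Trbc1 also ended with a pseudocount of 0.1 (adjusted p = 0.0634).

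Of 10 NK defining markers, 3 of them members (Gzma, Ncr1 and Eomes), 5 were tested and 4 were higher (7 of 10 with no filter), and their summed level was 14.4 to 24.2 FPKM in the dLAM libraries and 5.10 to 5.92 in the monocyte-macrophage libraries. S1pr5, which NK cells use to leave tissues, did not follow: it had 1.27, 0.813 and 1.77 FPKM in the dLAM libraries and 3.36, 1.99 and 1.03 in the others (-0.41, not called). Klrb1c, Klre1, Klra4, Klra8 and Eomes failed the filter, which is applied over all 6 libraries. With no filter, Klrb1c and Klre1 were called higher (limma adjusted p = 0.0292 and 0.0126), as was Eomes. Klra8 and Klra4 were not called, and Klra4 was highest in monocyte-macrophage library 3, at 1.09 FPKM. The share of T cells and of NK cells in the RNA of the 10 genes was not tested.

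**Figure D4:**
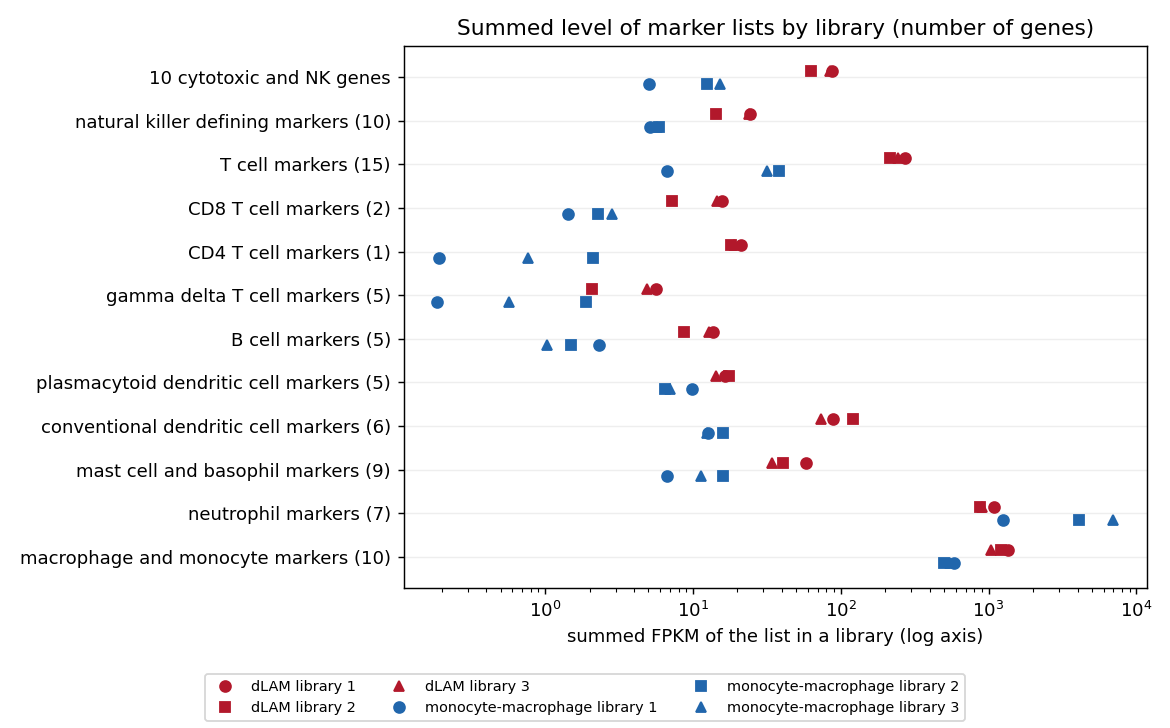
Summed FPKM of each marker list and of the 10 genes in each library on a log axis, with 1 point per library (dLAM red, monocyte-macrophage blue). The T cell sums are 216 to 271 FPKM in the dLAM libraries and 6.68 to 38.4 in the others, the neutrophil sums are higher in the monocyte-macrophage libraries, and the sums of the 10 genes are 62.9 to 86.6 against 5.05 to 15.1.

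Markers of further cell types differed too, and their part in the levels of the 10 genes was not tested. Summed levels in the dLAM libraries against the others were 2.08 to 5.61 against 0.187 to 1.89 FPKM for 5 gamma delta T cell genes (1 tested and not called, but called without monocyte-macrophage library 2), and 5.51 to 6.60 against 0.462 to 1.70 for 5 genes of type 2 innate lymphoid cells, of which Il1rl1 (1.76) and Gata3 were tested and higher. They were 8.70 to 13.7 against 1.03 to 2.31 for 5 B cell genes (2 of 2 tested higher). For dendritic cells the sums were 14.2 to 17.5 against 6.47 to 9.84 for 5 plasmacytoid genes (3 of 4 tested higher) and 73.3 to 121 against 12.5 to 15.9 for 6 conventional genes (5 of 6). Mast cell and basophil genes summed to 34.3 to 58.6 FPKM against 6.67 to 16.0, with 3 of 4 tested higher and Cpa3, Mcpt4, Fcer1a and Prss34 listed at 0 in all monocyte-macrophage libraries. Neutrophil genes went the other way, with sums of 874 to 1097 FPKM against 1254 to 6966, 0 of 7 higher and 2 lower (S100a8 and Mmp8). The call for S100a8 ended without any single library other than monocyte-macrophage library 1 (adjusted p up to 0.126), and those for S100a9 and Csf3r appeared without monocyte-macrophage libraries 1 and 3. The macrophage and monocyte list held 5 higher and 2 lower genes of 10, with sums of 1032 to 1354 FPKM against 499 to 582. Its higher genes were C1qa (5.93), Mrc1 (3.79), Cx3cr1 (1.53), Csf1r (1.05) and Adgre1 (0.60), and its lower genes were Ly6c2 (-2.64) and Ccr2 (-0.77). The call for Adgre1, which encodes F4/80, ended without any single library other than dLAM library 3 (adjusted p up to 0.136).

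Each gene was also set against Cd3e, which encodes a chain of the T cell receptor complex, a comparison chosen after the values were seen. As a percent of Cd3e in FPKM, no gene had all dLAM libraries above all monocyte-macrophage libraries, 4 genes (Gzma, Nkg7, Klrk1 and Eomes) had all dLAM libraries below, and 6 overlapped. Nkg7 was 18.3, 17.1 and 18.5 percent of Cd3e in the dLAM libraries and 144, 77.8 and 59.1 percent in the monocyte-macrophage libraries. Gzma was 26.9, 15.8 and 24.6 percent against 114, 37.4 and 28.6. Both ratios were highest in monocyte-macrophage library 1, where Cd3e was lowest. Gzmb was 77.7, 79.2 and 54.6 percent against 26.4, 22.2 and 87.6, and Ifng 23.9, 12.6 and 33.4 percent against 5.17, 31.7 and 17.0, so these genes overlapped between the groups. Cd3e differed more between the groups than most of the 10 genes, so a lower ratio in the dLAM libraries follows from the choice of reference and tests nothing. T cell markers themselves moved both ways against Cd3e: Cd4 was 52.2, 51.6 and 44.3 percent against 16.4, 40.8 and 14.9, and Cd8b1 was 31.2, 17.1 and 26.8 percent against 96.8, 32.3 and 43.0. With few fragments behind several monocyte-macrophage values, these ratios are imprecise.

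**Figure D5:**
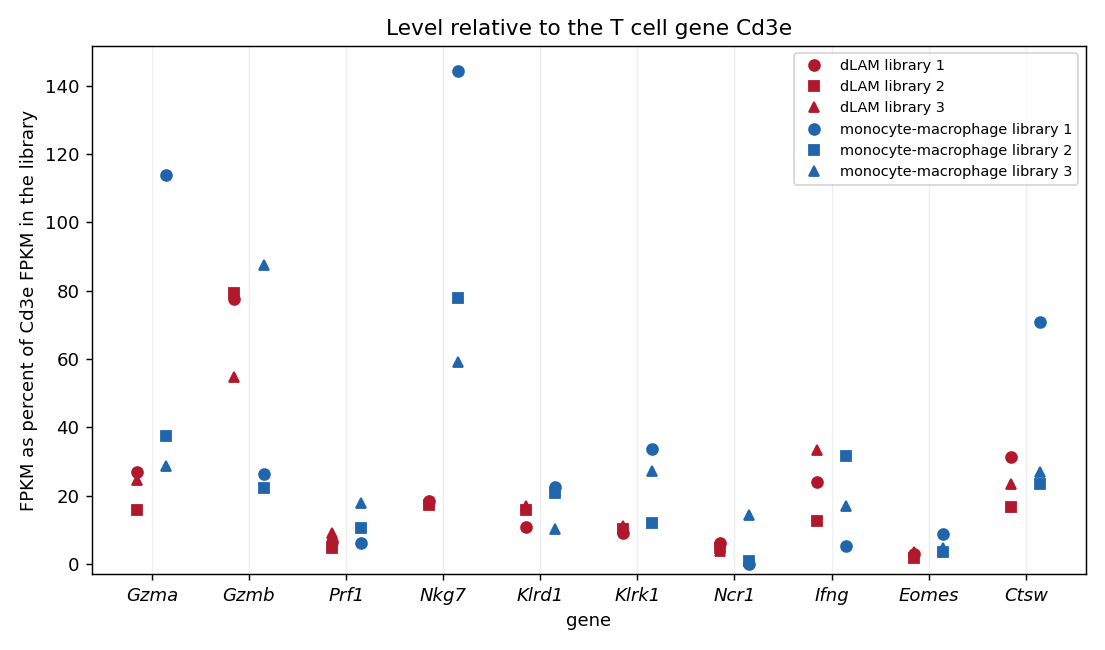
Level of each of the 10 genes as a percent of Cd3e in the same library (vertical axis), with 1 point per library (dLAM red, monocyte-macrophage blue). The dLAM points lie below the monocyte-macrophage points for Gzma, Nkg7, Klrk1 and Eomes and among them for the other 6 genes; Ncr1 in monocyte-macrophage library 1 is listed at 0.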

How the data were processed

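Bulk RNA from sorted macrophages of the cerebrospinal fluid was sequenced in 6 libraries, 3 per group, grouped by title and cell type label. The design text speaks of 10 samples, of which these 6 were analysed here. Per the submitters' processing notes, FastQC, HISAT2, featureCounts and genome build mm10 were used, without stated versions, while the annotation, gene lengths and strand setting were not stated in the sources used here. The authors deposited FPKM, fragments scaled by gene length and library total, for 34652 genes, and these values are not counts. Gene symbols matched 1 gene of the GENCODE M21 annotation for 32731 genes (94.5%). Depth was estimated from the steps between low values, of which 40.8% to 44.6% were whole fragments within 0.02, so counts were not recovered and fragment numbers are approximate.

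Values were fitted as log2(FPKM + 1) in limma 3.58.1 (R 4.3.3) with a mean-variance trend, without a replicate block, and p-values were adjusted by Benjamini-Hochberg over all genes tested, those with at least 1 FPKM in at least 3 of 6 libraries. A gene was called at an adjusted p under 0.05. Differences are dLAM minus monocyte-macrophage, and intervals are 95%. The script was tested on simulated data. Tables and plots used Python 3.11.15, pandas 2.3.3, numpy 2.4.6 and matplotlib 3.10.9. In the text, a library at 0 is called listed at 0, and no mean or ratio is given for that group.

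All 10 members are named. From each list are named up to 4 called genes with the largest differences, called genes against the direction of most of their list, and defining markers at or near 0. Other genes, such as those whose call ends without 1 library, Klrc1, Runx3, the adaptors of NKG2D, the receptors of interferon gamma and Il15, were named after their values were seen. The members and all lists were chosen with earlier results of these data known. Alternatives were pseudocount 0.1, no filter, a filter of 5 FPKM, TPM, median-of-ratios and quantile scaling, no trend, a replicate block, a term for Y-linked RNA, the 4 libraries of low Y-linked RNA alone, and leaving out each library.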

Additional observations from a re-analysis of the deposited data

How the results depend on the processing

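Of the alternatives, Eomes was fitted only in that with no filter, so it is not part of the count that follows. The 9 tested members kept their direction in all 139 values computed for them under the alternatives, and 137 of these were called. The other 2 were Prf1 and Ncr1 within the 4 libraries of low Y-linked RNA, where 7 of the 9 were called. In that fit, which held fewer libraries per group, the log2 difference was 1.09 for Prf1 and 1.22 for Ncr1. With all 6 libraries and a term for Y-linked RNA, all 9 were called. With a filter of 5 FPKM, 4 of the genes could be tested and all 4 were called. A pseudocount of 0.1 gave log2 differences of 2.44 for Prf1, 3.11 for Ncr1, 3.73 for Ifng, 3.15 for Klrd1, 2.33 for Klrk1 and 2.91 for the median of the 9. Of the 99 other genes that were called, those of the lists and Fibp, 79 kept the call under all alternatives in which they were fitted. The other 20 lost it under at least 1, with no direction reversed. Genes that failed the filter of 5 FPKM were not fitted in that alternative. Calls that ended with no filter were those for Cst7, Serpinb6a, Clec2d, Sh2d1b1, H2-T23, Runx3, Il18, Ccl4, Jak2, S100a8 and Adgre1. Some genes that had failed the filter, among them B cell and mast cell genes, were called higher with no filter. Some tested genes that were not called, among them Ctsc, Fas, Tyrobp, Ifngr1 and Irf1, were called under another choice of processing.

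Over all genes, 2249 were higher and 1204 lower in the dLAM libraries, so that 65.1% of calls were higher. The counts were 1247 higher with a filter of 5 FPKM, and 1480 higher and 780 lower within the libraries of low Y-linked RNA. Leaving out 1 library each gave 1590 to 2096 higher and 780 to 1220 lower genes, the lowest count of lower genes without dLAM library 2. Median-of-ratios scaling made 51.9% and quantile scaling 52.8% of calls higher. Quantile scaling moved the median of all genes by -0.10, and relative to its median the 9 genes stood 0.995 to 3.44 higher.

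With the replicate block, all 9 tested members were still called, with 1860 genes higher and 999 lower. Deviations of same-numbered libraries from their group means correlated at 0.189, -0.147 and -0.0887. dLAM library 3 correlated best with monocyte-macrophage library 2 (0.386), the pair high in Y-linked RNA. Deviations from the mean of so few libraries constrain each other, so these values cannot settle whether the numbers pair the libraries. Low levels limit the precision of the monocyte-macrophage values of Prf1, Ncr1, Ifng and Klrd1, several of which rest on 5 or fewer fragments in libraries no shallower as a group than those of dLAMs.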
